A study of Saccharomyces cerevisiae with 159 samples.

Results

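The genes described here encode 10 antioxidant enzymes of budding yeast, Saccharomyces cerevisiae and were picked by name from the 7130 rows of the deposited expression table, with earlier results of these data known. They are the catalases CTT1 (YGR088W) and CTA1 (YDR256C), the superoxide dismutases SOD1 (YJR104C) and SOD2 (YHR008C), the peroxiredoxins TSA1 (YML028W), TSA2 (YDR453C) and PRX1 (YBL064C), the glutathione peroxidase GPX1 (YKL026C), the thioredoxin TRX2 (YGR209C) and the glutaredoxin GRX1 (YCL035C). Their mRNA was followed in RNA-seq libraries from 8 experiments, in which cells stopped or slowed division in different ways. All 10 genes passed the filter on low values in all 8 experiments, so every member is described below.

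Reactive oxygen species are by-products of respiration and are handled in relay. Superoxide dismutases turn superoxide into hydrogen peroxide, SOD1 with copper and zinc mainly in the cytosol and SOD2 with manganese in the mitochondrial matrix. Catalases split hydrogen peroxide, Ctt1 in the cytosol and Cta1 in peroxisomes, where fatty acid oxidation produces it. Peroxiredoxins reduce peroxides with a reactive cysteine (Tsa1 and Tsa2 in the cytosol, Prx1 in mitochondria), and thioredoxins such as Trx2 and glutaredoxins such as Grx1 keep protein thiols reduced. Several of these genes belong to the environmental stress response, the programme that the transcription factors Msn2 and Msn4 switch on through the stress response element and that protein kinase A holds down. Yap1 and Skn7 drive antioxidant genes in response to peroxide, and Bcy1 is the subunit that inhibits protein kinase A.

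All strains were W303 derivatives. WT was haploid MATa and carried the markers can1-100, his3-11,15, trp1-1, ura3, leu2-3 and ade2-1, with GAL and psi+. The cdc28-13 strain carried its allele as cdc28-13::URA3, whereas WT was ura3. Wherever cdc28-13 is compared with WT below, URA3 and the arrest cannot be told apart. In the cdc28-13 (G1) experiment WT and cdc28-13 were held at 37 °C, WT in triplicate at 2, 4, 6, 8 and 9 h, with 3 cdc28-13 libraries at 2, 8 and 9 h, and 1 cdc28-13 library at 4 and at 6 h. The cdc20-1 (metaphase, a MATalpha strain, 9 libraries with WT) and cdc15-2 (anaphase, an ade1 strain, 10 libraries with WT) arrests at 37 °C had 1 library per strain and time, as had the arrest of a bar1::HisG MATa strain in 5 µg/mL alpha factor against DMSO at 30 °C (12 libraries). Stationary phase was sampled from cultures grown undiluted at 30 °C for 2 to 24 h, 23 libraries of haploid WT and of a strain labelled MATa/alpha diploid. Rapamycin at 5 nM, per the labels, was given to the same 2 strains for 0 to 5 h at 30 °C, 24 libraries. For the diploid cultures the supplement gives a lower dose than the labels. A prototrophic cdc28-13 strain (ADE2 URA3 TRP1 HIS3, with a 4xSTRE-GFP reporter at LEU2) was set beside an auxotrophic one (ADE2 with his3, trp1-1, ura3 and leu2-3) after synchronization with alpha factor, 1 library per strain and time, 8 in all.

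In the Bcy1 experiment (47 libraries) WT, cdc28-13, cdc20-1 and cdc15-2 were each compared with a strain that carried Bcy1 fused to an auxin-inducible degron (KanMX:pRFA1:9Myc-AID*-BCY1) and the ubiquitin ligase adaptor osTIR driven by the TEF1 promoter. The parents carried neither construct. All strains, parents included, were held at 37 °C in medium with acetic acid, and the 4 and 6 h libraries had received 500 µM auxin after the 2 h sample. By the paper, auxin was added after 2 h and again after 4 h. Whether the 4 h libraries were taken before the later addition is not stated, so treatment may differ between 4 and 6 h. Each strain was a single isolate, and nothing states that libraries of a group came from separate cultures, so the p-values below measure the spread between libraries, which may be technical. AID-BCY1 strains differed from their parents in the degron, the promoter of BCY1, osTIR and the markers KanMX and LEU2 together. By the labels, cdc20-1 was also MATalpha and its degron strain MATa, and cdc15-2 was ade1 whereas its degron strain carried ade2-1, his3-11,15 and can1-100. These differences cannot be told apart from the loss of Bcy1. BCY1 mRNA over all times was at 6.24 to 7.12 in cdc28-13 AID-BCY1 and at 7.79 to 8.40 in cdc28-13. It was at 6.56 to 7.61 against 8.26 to 8.88 for cdc20-1, and at 6.59 to 7.18 against 8.12 to 8.41 for cdc15-2. Degron strain and parent thus did not overlap in these backgrounds. WT AID-BCY1 (6.73 to 7.42) and WT (6.92 to 7.93) did overlap. Bcy1 protein was not measured here.

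Values are log2(TPM + 1), where TPM is the level of a transcript relative to all transcripts, scaled for gene length. Each library was rescaled to a total of 1000000 TPM over 6678 nuclear open reading frames outside the ribosomal DNA, because 7 reading frames inside the ribosomal DNA took between 63.8% and 87.5% of the reading frame TPM in the cdc28-13, stationary phase and rapamycin experiments and rRNA took 75.0% to 84.1% of all TPM there, against 0.322% to 33.4% in the other experiments. The methods of the study name those 3 experiments as total RNA and the rest as enriched for mRNA, whereas the labels also give total RNA for the alpha factor and Bcy1 libraries. As deposited, the TPM of a library summed to between 625300 and 813260 in the cdc28-13 experiment and to between 937160 and 1047800 in the cdc15-2 and cdc20-1 experiments, not to 1000000, and the reason is not given in the sources used here. Levels are therefore relative, and an amount per cell cannot be read from them. TPM keeps no read depth, so a value of 0 means that the gene was listed at 0. No pair of libraries was identical (largest correlation 0.9922). Mating type genes did not always follow the labels. In the Bcy1 experiment the libraries labelled WT and WT AID-BCY1, both MATa by label, expressed the alpha-specific receptor STE3 at 7.30 to 7.82 and the a-specific receptor STE2 at 2.26 to 3.00. The cdc15-2 AID-BCY1 libraries did likewise (STE3 at 6.66 to 7.92), whereas cdc28-13 and cdc15-2 were of the a type and cdc20-1 of the alpha type. In the stationary phase experiment, STE2, which true a/alpha diploids switch off, was at 5.51 to 8.53 in the libraries labelled diploid and at 3.47 to 8.45 in the haploid ones, so they are called diploid-labelled here. Wherever groups of different mating type are compared below, mating type and the arrest or the degron cannot be told apart.

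The 10 genes lie on 8 chromosomes of the R64 assembly, each as a single coding exon. CTT1 is at chrVII:654634-656322 and TRX2 at chrVII:912913-913227, CTA1 at chrIV:968133-969680 and TSA2 at chrIV:1365072-1365662. SOD1 is at chrX:622550-623014, SOD2 at chrVIII:122889-123590 and TSA1 at chrXIII:220138-220728. PRX1 is at chrII:100371-101156, GPX1 at chrXI:389380-389883 and GRX1 at chrIII:60841-61173. CTT1 and TSA1 are on the forward strand and the other 8 on the reverse strand.

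The sequence upstream of each gene was searched for 3 motifs on both strands, because most of the genes moved together in the experiments below. The core of the stress response element, AGGGG, which reads CCCCT from the other strand, was found in 7 of 10 members within 250 bases before to 50 bases after the annotated gene start, against 21.6% of 6001 windows of that length. CTA1, TSA2 and TRX2 held none there. In a longer window from 600 bases before the start, tried after the data had been seen, 9 of 10 members held it, all but CTA1, against 41.8% of 5999 windows. CTT1 held 4 copies in the long window and 1 in the short one. The Yap1 element TTACTAA, which reads TTAGTAA from the other strand, was found in SOD1 and TRX2 in the short window, against 7.45% of windows, and in CTA1, SOD1, SOD2, TSA2 and TRX2 in the long one, against 14.3%. The heat shock element GAANNTTC was found in 0 of 10 members in either window, against 11.8% and 24.4%. In the members no 2 matches overlapped, and a match in sequence is not a measurement of binding. The stretches below, from the RefSeq R64 assembly on each gene's own strand, show the 4 copies in CTT1, the pair of Yap1 elements in TRX2, both elements in SOD1, and the single AGGGG nearest to the start of PRX1, SOD2, TSA1 and GRX1, with the motif in capitals and the distance of its first base from the gene start.
CTT1, 591 bases before, chrVII:654034-654056: ttgaagattAGGGGttgcaagtc
CTT1, 378 bases before, chrVII:654247-654269: tctttttcaAGGGGatcaccggt
CTT1, 363 bases before, chrVII:654262-654284: tcaccggtaAGGGGccaagcggt
CTT1, 133 bases before, chrVII:654492-654514: ttatcgtatCCCCTactgctaca
SOD1, 197 bases before, chrX:623198-623220: cgctcccttAGGGGcacccaccc
SOD1, 149 bases before, chrX:623149-623171: tgtcggaaTTAGTAAgcggacat
TRX2, 217 bases before, chrVII:913430-913452: ttatactcTTAGTAAaggatgct
TRX2, 181 bases before, chrVII:913394-913416: ctcttttcTTACTAAgcgcgttc
PRX1, 116 bases before, chrII:101259-101281: aaagaaacaAGGGGccggatgtt
SOD2, 141 bases before, chrVIII:123718-123740: tagcagacaCCCCTgatgaagaa
TSA1, 53 bases before, chrXIII:220076-220098: acgggccttCCCCTcgttcaatt
GRX1, 184 bases before, chrIII:61344-61366: cttactaccCCCCTtgcgcctcc

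Over all libraries of the 8 experiments, the cytosolic peroxiredoxin TSA1 and the cytosolic dismutase SOD1 were the most abundant of the 10 mRNAs, with medians of 1433 and 1096 TPM. GRX1 (373 TPM), TRX2 (315 TPM), SOD2 (278 TPM) and PRX1 (143 TPM) followed. TSA2 (27.8 TPM), GPX1 (24.3 TPM), CTT1 (20.4 TPM) and CTA1 (12.4 TPM) were scarce in most libraries, and GPX1 was listed at 0 in 24 libraries, TSA2 in 19, CTT1 in 5 and CTA1 in 4. The scarce genes also had the widest range, CTT1 from 0 to 10.74 on the log2 scale. For 9 of the 10 genes the highest group mean was that of the diploid-labelled cultures at 10 h of growth, where the mean of 2 libraries was 7239 ± 363 TPM (SD) for SOD1, 4652 ± 124 TPM for TSA1 and 1685 ± 38.7 TPM for CTT1. CTA1 was highest in the same cultures at 24 h, at 383 ± 10.1 TPM (SD, n = 2), followed by haploid cultures at 24 h at 329 TPM.

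The first comparison asked how the antioxidant genes behaved when cells were held in G1 by the cdc28-13 allele, which inactivates the main cyclin-dependent kinase at 37 °C. After 8 h, 8 of the 10 genes were higher in cdc28-13 than in WT and none was lower (17.5% of the 6263 genes tested were called higher). CTT1 was at 3.11, 2.92 and 4.18 in the 3 WT libraries and at 9.93, 9.86 and 9.99 in the 3 cdc28-13 libraries. Every cdc28-13 library lay far above every WT library, and the difference was 6.52 ± 0.88 (SE, n = 3 and 3) on the log2 scale with a limma adjusted p of 6.02e-06. PRX1, the mitochondrial peroxiredoxin, was at 5.89, 6.02 and 6.26 in WT and at 10.04, 10.44 and 10.05 in cdc28-13, a difference of 4.12 ± 0.44 (adjusted p = 2.57e-07). CTA1 was at 3.75, 3.92 and 3.10 in WT and at 6.68, 7.25 and 5.38 in cdc28-13, a difference of 2.84 ± 0.48 (adjusted p = 9.77e-05). Both groups of libraries stood apart for these genes too. The mitochondrial dismutase SOD2 was at 7.24, 7.40 and 7.27 in WT and at 9.70, 9.75 and 10.38 in cdc28-13, a difference of 2.64 ± 0.22 (adjusted p = 6.66e-09). TSA1, already abundant in WT at 9.97, 10.15 and 9.62, was at 11.53, 11.42 and 11.55 in cdc28-13, a difference of 1.59 ± 0.13 (adjusted p = 6.62e-09). No library of one group reached into the range of the other for either gene, and the third cdc28-13 library was the highest for SOD2.

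TRX2 and GRX1, the thiol reductants, rose by about as much as TSA1 at 8 h. TRX2 was at 7.82, 7.97 and 6.95 in WT and at 8.87, 9.05 and 9.51 in cdc28-13, a difference of 1.57 ± 0.47 (adjusted p = 0.0126, and 0.0707 without WT library 3). GRX1 was at 8.49, 7.50 and 8.17 in WT and at 9.85, 9.25 and 10.04 in cdc28-13, a difference of 1.66 ± 0.40 (adjusted p = 0.00286). The libraries of the groups did not overlap for either gene. TSA2 (5.12, 5.88 and 4.41 in WT and 7.42, 5.91 and 7.82 in cdc28-13, adjusted p = 0.319) and GPX1 (4.80, 5.14 and 4.65 in WT and 7.47, 7.46 and 7.39 in cdc28-13, adjusted p = 0.0907) did not pass the test, although their libraries did not overlap. This absence of overlap held for 10 of 10 members and for 47.1% of all genes tested. The median difference of the 10 genes was 2.25, beside -0.20 for all genes tested.

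SOD1 behaved differently from the other members and depended on the scaling. At 8 h it was at 9.80, 9.91 and 9.83 in WT and at 10.07, 10.50 and 10.35 in cdc28-13, a difference of 0.46 ± 0.16 (adjusted p = 0.0275), which became -0.51 (adjusted p = 0.0123) where the ribosomal DNA reading frames counted towards the total and -0.62 (adjusted p = 0.000881) in the deposited values. Leaving out WT library 1 or 3 or cdc28-13 library 2 or 3 also ended this call (adjusted p between 0.0642 and 0.113). At 9 h SOD1 was at 9.72, 9.83 and 10.13 in WT and at 9.64, 9.79 and 9.66 in cdc28-13, a difference of -0.19 ± 0.16 (adjusted p = 0.38), and it was called lower under the same 2 scalings (-0.98 and -1.18). Both scalings shifted all genes together: the median difference over all genes at 8 h moved from -0.20 to -0.98 and -0.84, and the split of called genes from 1094 higher and 1361 lower to 594 and 2764 with the ribosomal DNA and to 384 and 2416 in the deposited values. At 9 h the split moved from 1069 and 1197 to 643 and 2400 and to 368 and 2340. Of the other called members at 8 h, TRX2 and GRX1 lost their calls under both scalings, and CTT1, SOD2, TSA1 and PRX1 did not. CTA1 stayed higher with the ribosomal DNA (1.67, adjusted p = 0.00183). In the deposited values CTA1, TSA2 and GPX1 were below the filter on low values and were not tested.

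At 9 h, 8 of 10 members were again higher in cdc28-13 (17.1% of all genes were called higher), this time with TSA2 and without SOD1, and the median difference was 2.39 beside -0.12 for all genes. CTT1 was at 3.66, 0 and 3.20 in WT and at 8.97, 9.09 and 8.94 in cdc28-13, a difference of 6.71 ± 0.88 (adjusted p = 4.34e-06) that was 5.57 without the WT library at 0. CTA1 was at 4.48, 3.01 and 3.30 in WT and at 7.52, 6.97 and 7.08 in cdc28-13, a difference of 3.59 ± 0.48 (adjusted p = 6.63e-06). The cdc28-13 libraries were again all above the WT libraries. PRX1 differed by 3.78 ± 0.44, SOD2 by 2.32 ± 0.22, TRX2 by 2.05 ± 0.47, TSA1 by 1.68 ± 0.13 and GRX1 by 1.63 ± 0.40, with adjusted p between 3.13e-09 and 0.00342. TSA2 was at 0, 3.41 and 3.70 in WT and at 5.36, 7.20 and 7.03 in cdc28-13 (difference 4.16 ± 1.45, adjusted p = 0.0305), a call that was lost without WT library 1 or cdc28-13 library 2 or 3 (adjusted p between 0.0796 and 0.159). GPX1 was at 3.89, 0 and 3.96 in WT and at 4.64, 5.88 and 4.73 in cdc28-13, with an adjusted p of 0.113. At 9 h the libraries did not overlap for 9 members, again beside 47.1% of all genes.

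**Figure D1:**
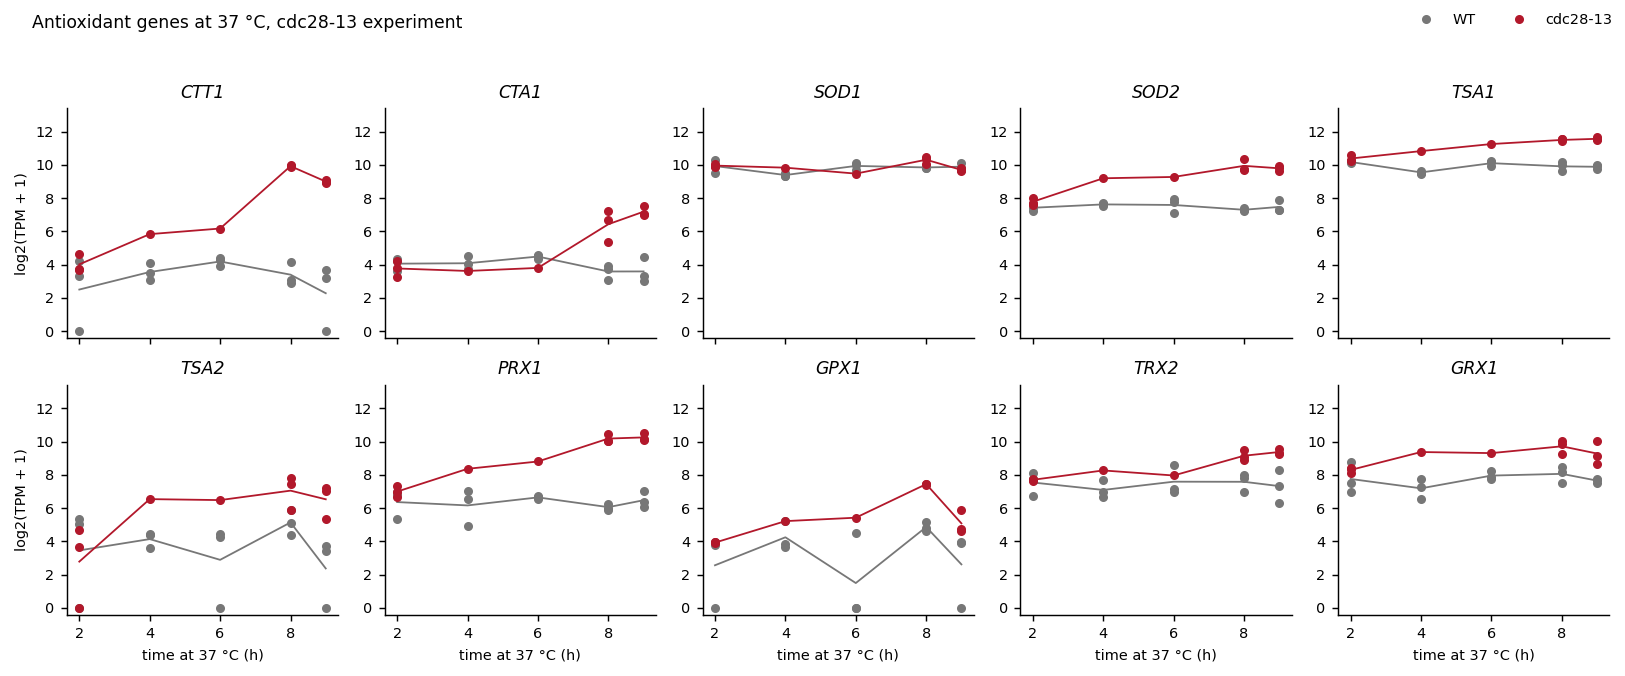
Levels of the 10 genes in every library of the cdc28-13 experiment. Each panel is a gene, the x axis is the time at 37 °C in h, the y axis is log2(TPM + 1), points are libraries (WT grey, cdc28-13 red) and lines join group means. CTT1 in cdc28-13 is between 3.67 and 4.66 at 2 h and between 8.94 and 9.99 at 8 and 9 h, whereas SOD1 lies between 9.34 and 10.50 throughout.

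Earlier in the arrest fewer members passed the test. At 4 and 6 h there was 1 cdc28-13 library, against 3 at 8 and 9 h, so counts at these times also differ in power. At 2 h, 0 of 10 members differed between cdc28-13 and WT by limma (1.15% of all genes were called in either direction, and 567 genes had an unadjusted p under 0.05), with CTT1 at 4.66, 3.73 and 3.67 in cdc28-13 and at 0, 4.21 and 3.31 in WT. In the single cdc28-13 libraries at 4 and 6 h, CTT1 was at 5.84 and 6.18, PRX1 at 8.36 and 8.80 and SOD2 at 9.20 and 9.28, each between its values at 2 h and at 8 h. A difference of at least 1 on the log2 scale from the mean of 3 WT libraries was reached by 7 members at 4 h (24.3% of all genes) and by 7 at 6 h (25.7%). By limma, a test added after the data had been seen in which the lone library is assumed to vary like the other groups, 4 members were higher at 4 h (6.05% of all genes) and 3 at 6 h (6.39%). These were SOD2, TSA1 and PRX1 at both times (adjusted p between 7.87e-05 and 0.024) and GRX1 at 4 h (2.18, adjusted p = 0.0158). With only the compared groups fitted fewer members passed, and the share of all genes under that fit is not given here. The differences were not all smaller than at 8 h. At 6 h GPX1 differed by 3.93 and TSA2 by 3.59 (adjusted p = 0.143 and 0.307), with GPX1 listed at 0 in 2 of the 3 WT libraries and TSA2 in 1. CTA1 was at 3.62 and 3.81, below the WT means of 4.09 and 4.49. WT itself gave 0 of 10 called members between 2 and 9 h at 37 °C (0.176% of all genes were called, and 287 had an unadjusted p under 0.05). Over the 15 WT libraries the lowest, median and highest values were 0, 3.50 and 4.43 for CTT1 and 9.46, 9.97 and 10.23 for TSA1.

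Of 24 related genes of thiol and peroxide metabolism, 10 were higher and 3 lower in cdc28-13 at 8 h, and 9 were higher and 3 lower at 9 h. Among all 6263 genes 1094 were higher and 1361 lower at 8 h, and 1069 and 1197 at 9 h. The medians of the related genes were 0.67 and 0.83, beside -0.20 and -0.12 for all genes. SRX1, the sulfiredoxin that repairs over-oxidized peroxiredoxins, had the largest rise, from a mean of 1.35 in WT to 7.83 in cdc28-13 at 8 h (difference 6.48, adjusted p = 9.02e-06). The next was GTT1, a glutathione transferase, with a difference of 2.04 (adjusted p = 0.000532). In the opposite direction went the housekeeping cytosolic thioredoxin system: TRX1, the close paralog of TRX2, fell by 2.91 (adjusted p = 7.37e-07) and the thioredoxin reductase TRR1 fell by 1.73 (adjusted p = 0.000268). TRX1 and TRX2 thus moved in opposite directions at 8 h on this scale, with TRX2 short of the threshold under the 2 other scalings. Among 5 regulators, MSN4 was higher by 2.33 at 8 h and by 2.69 at 9 h (adjusted p = 1.78e-06 and 2.65e-07), and MSN2 fell by 1.46 at 9 h (adjusted p = 0.00187).

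Arrests in metaphase and anaphase were compared next, in single libraries and hence without a test. In cdc20-1, which cannot activate the anaphase-promoting complex, CTT1 was at 6.48, 6.96, 7.11, 7.34 and 7.39 at 2, 4, 6, 8 and 9 h, against 3.43, 3.56, 3.58 and 3.21 in WT at 2, 4, 6 and 9 h. CTT1 was thus already high at the first time point. TSA1 was instead highest at 2 h, at 11.06, and passed through 10.72 and 10.42 to 10.27 at 8 and 9 h, against 9.80 to 10.06 in WT. PRX1 was at 8.38, 8.81, 8.77, 8.65 and 8.74 in cdc20-1 and at 6.53, 6.42, 6.61 and 6.39 in WT. SOD1, at 10.13, 10.31, 10.15, 9.94 and 9.99 in cdc20-1 and 9.93, 9.89, 10.13 and 9.88 in WT, overlapped between the strains. The number of members at least 1 log2 unit higher in cdc20-1 was 8, 7, 8 and 8 at 2, 4, 6 and 9 h, against 16.4%, 23.3%, 25.1% and 30.6% of 6438 genes. None was lower by as much. The cdc20-1 libraries were of the alpha type (STE3 at 7.17 to 7.38) and WT of the a type.

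In cdc15-2, which blocks exit from mitosis, most members were near WT at first and higher later. CTT1 was at 3.32, 4.45, 5.76, 6.58 and 6.47 at 2, 4, 6, 8 and 9 h, against 3.39, 3.44, 3.01, 2.98 and 3.03 in WT. TSA2, the stress-inducible paralog of TSA1, was at 3.98, 5.38, 7.10, 7.63 and 7.44, against 3.95, 4.36, 4.43, 4.66 and 4.37. GPX1 was at 4.87, 5.37, 6.32, 6.75 and 6.81, against 3.77, 4.34, 4.18, 4.12 and 3.86. At 2 h GPX1 was the only member at least 1 log2 unit above WT, by 1.09, and CTT1 and TSA2 stood at the WT value. TRX2 and the abundant TSA1 and SOD1 stayed within 1 log2 unit of WT at every time. TSA1 was at 10.00, 10.14, 10.43, 10.53 and 10.25, with WT at 9.90 to 9.99. SOD1 was at 10.22, 10.59, 10.83, 10.72 and 10.59, with WT at 9.75 to 9.98. The number of members at least 1 log2 unit higher was 1, 6, 6, 7 and 7 over the 5 times, against 2.18%, 9.18%, 20.0%, 26.6% and 31.8% of 6365 genes. After centring each difference on the median of all genes the count at 4 h was 1, since 5 of the 6 differences there were between 1.01 and 1.19.

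Alpha factor arrests MATa cells in G1 through the mating pathway with the kinase allele intact. From 2 to 8 h the leading member there was not CTT1 but the glutaredoxin GRX1, at 7.29, 9.19, 9.45, 10.00, 10.32 and 9.95 at 0, 2, 4, 6, 8 and 9 h, against 7.13, 7.10, 6.96, 7.22, 6.89 and 7.22 with DMSO. PRX1 was at 5.31, 7.17, 6.51, 7.38, 7.62 and 8.02, against 5.70, 5.28, 5.00, 5.06, 4.94 and 5.04. From 2 h on, every treated library was above every DMSO library for both genes. CTT1 was at 3.25, 5.11, 2.99, 3.47, 3.19 and 4.09, against 3.57, 3.22, 2.59, 2.59, 2.96 and 2.95, so that it stood out at 2 h and lay within 1 log2 unit of DMSO at 4, 6 and 8 h. CTA1 was at 2.64 to 3.19 with alpha factor and 2.39 to 3.11 with DMSO. SOD1, between 10.05 and 10.51 with alpha factor and between 9.66 and 10.26 with DMSO, never differed by 1. The number of members at least 1 log2 unit higher was 0, 5, 3, 5, 6 and 7 over the 6 times, against 0.585%, 12.8%, 15.0%, 19.1%, 19.2% and 24.4% of 5978 genes. The mating response itself was present in the treated libraries, where FUS1 reached 9.75 and FIG1 11.64.

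**Figure D2:**
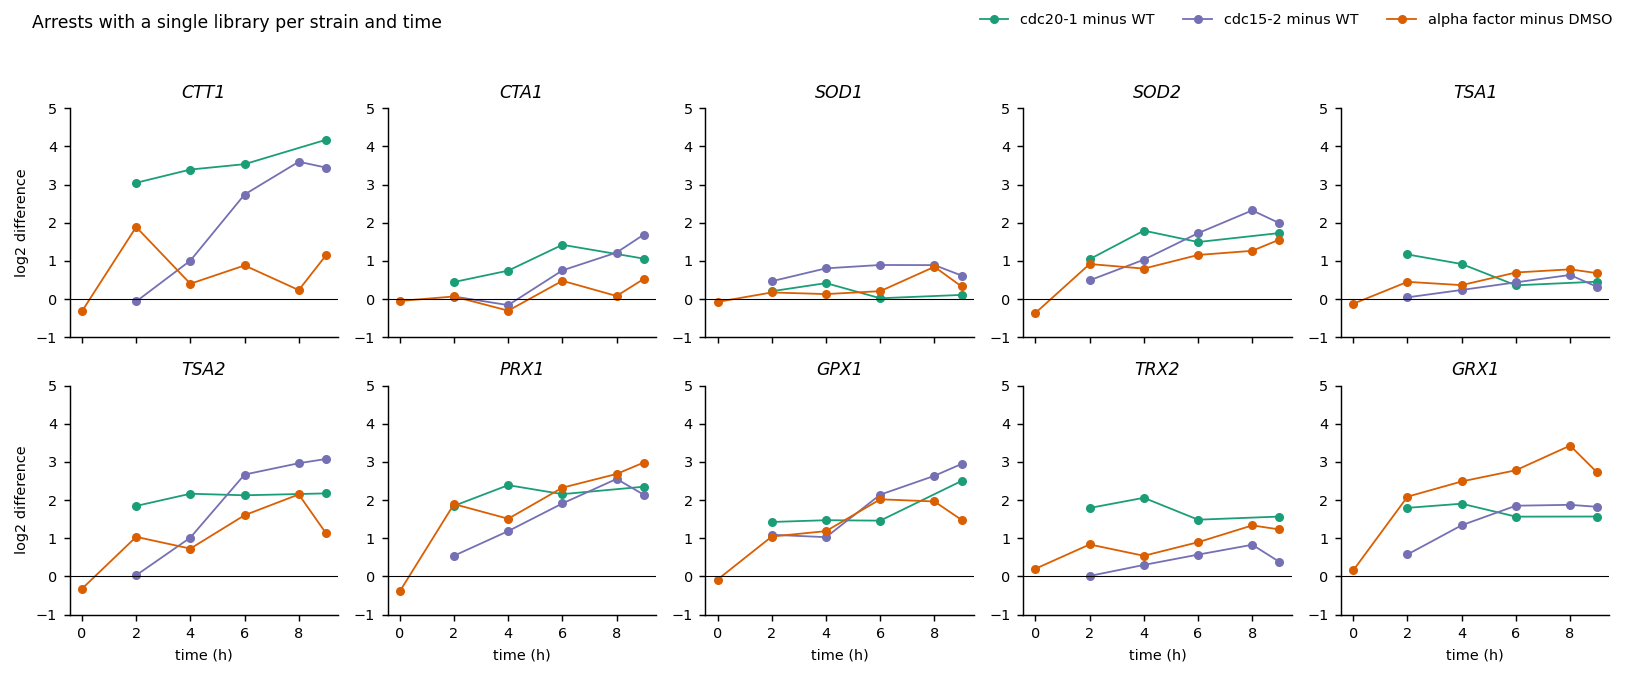
Differences of single libraries by time, one panel per gene and one line per comparison: cdc20-1 minus WT in green, cdc15-2 minus WT in purple and alpha factor minus DMSO in orange. The x axis is time in h, the y axis is the log2 difference, and no error can be given with 1 library per point. CTT1 leads in cdc20-1 at every time (3.05 at 2 h and 4.17 at 9 h) and in cdc15-2 from 6 h (2.74 to 3.60), whereas GRX1 leads with alpha factor from 2 to 8 h (3.43 at 8 h).

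Auxotrophy was examined because a strain that lacks amino acid and nucleotide synthesis genes might run short of nutrients during a long arrest. In the auxotrophic cdc28-13 strain CTT1 was at 4.19, 5.58, 6.73 and 7.29 at 2, 4, 6 and 8 h, and in the prototrophic strain at 3.95, 5.39, 6.02 and 6.14. CTT1 was higher at each later time in both strains, and the prototroph minus auxotroph difference was -0.24, -0.19, -0.71 and -1.15. At 8 h CTA1 was at 4.80 in the auxotroph and 3.12 in the prototroph, and GPX1 at 7.05 and 5.87. These were the 3 members that lay at least 1 log2 unit lower in the prototroph at 8 h (11.7% of 6205 genes did), and at 2, 4 and 6 h none did. TSA1 (11.37 and 11.20 at 8 h) and SOD1 (10.33 and 10.36) were nearly equal between the strains. With single libraries, no error can be given for these differences, and the prototroph also carried the reporter.

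Stationary phase gave the largest levels. Cultures that had grown for 10 h and for 24 h were compared with the same strain at 2 h, 2 libraries each. In haploid cultures CTT1 was at 3.66 and 3.67 at 2 h, at 2.75 and 3.56 at 8 h, at 6.82 and 7.04 at 10 h and at 9.70 and 9.67 at 24 h. It was thus flat for 8 h and highest at 24 h. The change to 10 h was 3.27 ± 0.87 (SE, adjusted p = 0.0248, and between 0.0879 and 0.129 without any 1 of the 4 libraries), and to 24 h it was 6.02 ± 0.87 (adjusted p = 0.000145). At 10 h, 7 of 10 members were higher (6.46% of 6087 genes), with a median of 3.25 beside 0.14 for all genes. At 24 h, 8 of 10 were higher (12.4% of all genes), with a median of 3.99 beside 0.32. No member was lower at either time.

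Both mitochondrial enzymes rose in the haploid cultures. PRX1 was at 5.71 and 3.82 at 2 h, at 9.17 and 9.19 at 10 h and at 9.88 and 9.81 at 24 h, a change of 5.08 ± 0.56 to 24 h (adjusted p = 1.18e-05). SOD2 was at 7.04 and 7.48, then 10.39 and 10.28, then 10.66 and 10.86, a change of 3.49 ± 0.31 (adjusted p = 1.25e-06). The 24 h libraries of both genes were well above those of 2 h. TSA1 (9.99 and 10.14 at 2 h, 11.29 and 11.45 at 24 h) rose with a 95% interval of 1.02 to 1.58, and SOD1 (9.84 and 9.50 at 2 h, 11.26 and 11.02 at 24 h) by 1.47 ± 0.28, with adjusted p of 5.01e-06 and 0.00154. TRX2 rose by 3.10 ± 0.53 and GRX1 by 2.93 ± 0.56 (adjusted p = 0.000559 and 0.00156). At 10 h the means of these 4 genes were already above those of 24 h.

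In the haploid cultures the peroxisomal catalase passed the test at 24 h and not at 10 h. CTA1 was at 4.72 and 2.90 at 2 h and at 3.73 and 0 at 10 h in haploid cultures, and at 8.44 and 8.29 at 24 h. The change to 10 h did not pass the test (adjusted p = 0.454), and that to 24 h was 4.55 ± 1.34 (adjusted p = 0.0242, but 0.164 without the second 2 h library, and 0.0958 and 0.0862 without either 24 h library). CTT1, the cytosolic catalase, passed at 10 h, a call that was lost when single libraries were left out. Whether the catalases differed in timing was not tested. TSA2 (0 and 4.23 at 2 h, 6.53 and 6.68 at 24 h) and GPX1 (4.45 and 0 at 2 h, 7.36 and 7.92 at 24 h) had adjusted p of 0.14 and 0.0634 at 24 h. For both genes a 2 h library was listed at 0, and without the first 2 h library GPX1 passed (adjusted p = 0.0346).

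**Figure D3:**
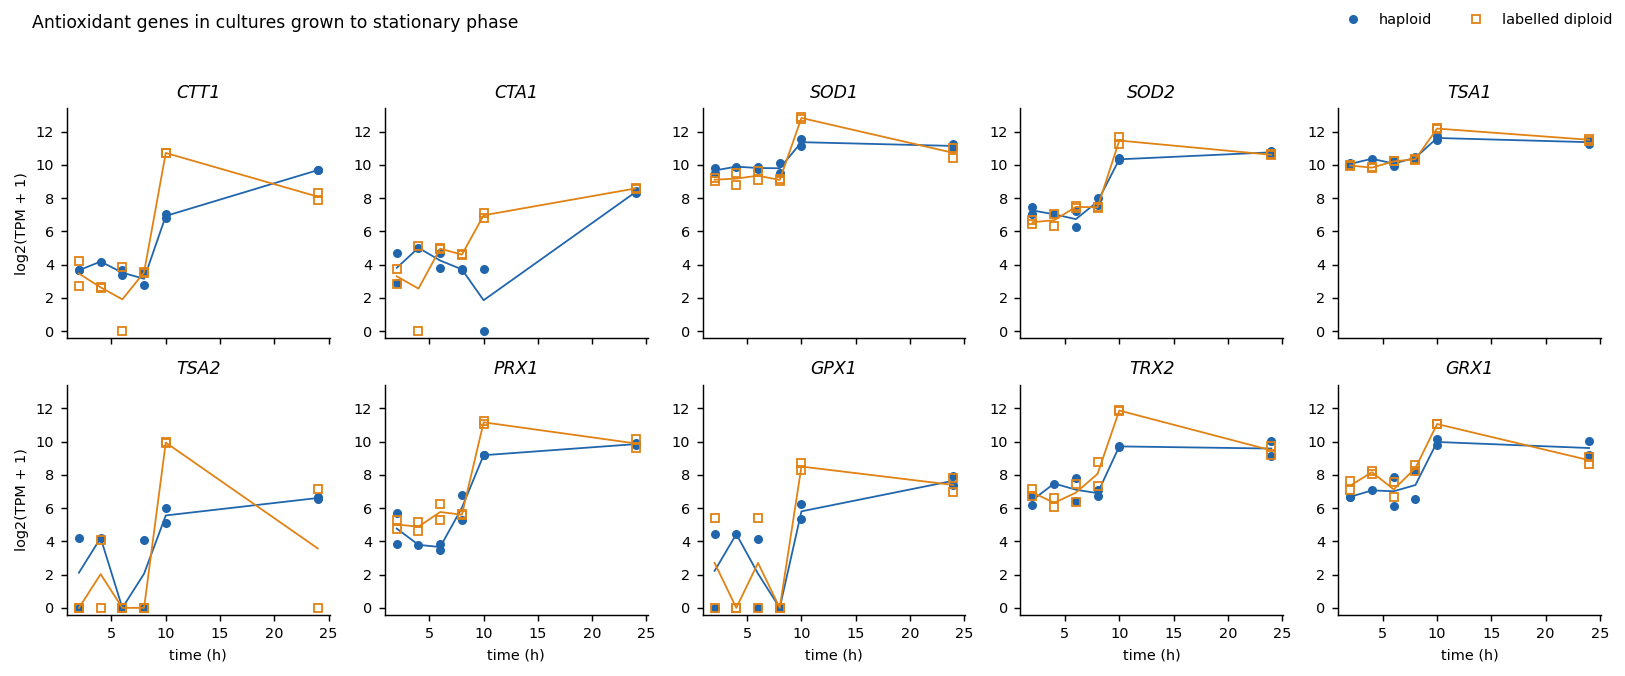
Levels of the 10 genes in each library of the stationary phase experiment, with haploid libraries as filled blue circles and diploid-labelled libraries as open orange squares. The x axis is hours of growth, the y axis is log2(TPM + 1), and lines join the means of 1 or 2 libraries. Most genes change little to 8 h, and at 10 h the diploid-labelled libraries lie above the haploid ones, for CTT1 at 10.70 and 10.74 against 6.82 and 7.04.

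In the diploid-labelled cultures CTT1, TRX2, GRX1 and TSA2 were lower at 24 h than at 10 h, and CTA1 was higher. The change from 10 to 24 h was not tested, and no share of all genes is given for it. CTT1 was at 4.19 and 2.74 at 2 h, at 3.57 and 3.51 at 8 h, at 10.70 and 10.74 at 10 h and at 8.32 and 7.86 at 24 h. It peaked at 10 h, unlike in the haploid cultures. Relative to 2 h the change was 7.25 ± 0.87 at 10 h (adjusted p = 1.71e-05, a comparison added after the data had been seen) and 4.62 ± 0.87 at 24 h (adjusted p = 0.00151). TRX2 was at 6.74 and 7.14, at 11.87 and 11.86 and at 9.75 and 9.19 at 2, 10 and 24 h. GRX1 was at 7.06 and 7.63, at 11.07 and 11.04 and at 8.66 and 9.10. TSA2 was listed at 0 in both 2 h libraries, was at 9.91 and 9.97 at 10 h, and at 24 h at 7.15 in the first library and 0 in the second. Each of these was highest at 10 h, and CTA1 was at 2.86 and 3.75, then 7.13 and 6.81, then 8.61 and 8.56.

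By the test, 9 of 10 members were higher at 10 h than at 2 h in the diploid-labelled cultures (13.5% of all genes), all but CTA1 (adjusted p = 0.0544), and 7 of 10 at 24 h (11.2% of all genes), with a median of 3.81 at 24 h beside 0.28 for all genes. At 24 h SOD2 was higher by 4.05 ± 0.31, PRX1 by 4.87 ± 0.56 and CTA1 by 5.28 ± 1.34 (adjusted p = 3.73e-07, 1.91e-05 and 0.0113), and GRX1, TSA2 and GPX1 did not pass (adjusted p = 0.0726, 0.259 and 0.115). The CTA1 call was lost without the first 2 h library or either 24 h library (adjusted p between 0.0537 and 0.0737) and held without the second 2 h library (0.0382), and TSA2 and GPX1 passed without single libraries (lowest adjusted p 0.0236 and 0.0323). The difference between the strains was itself tested. From 2 to 10 h the change was larger in the diploid-labelled cultures by 2.01 for SOD1 (adjusted p = 0.005), by 1.83 for SOD2 (0.017) and by 0.67 for TSA1 (0.042), 3 of 10 members beside 7.57% of 6087 genes. From 2 to 24 h, 0 of 10 members differed by limma (0.279% of all genes, 474 genes and 0 members at an unadjusted p under 0.05).

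Scaling bore on the counts over all genes more than on the members in stationary phase. In haploid cultures at 24 h the split of called genes was 755 higher and 625 lower, and 614 and 899 with the ribosomal DNA reading frames in the total and 552 and 1093 in the deposited values, with 8, 9 and 10 members higher. Of the 24 related genes, 8 were higher and 1 lower in haploid cultures at 10 h, 9 and 2 at 24 h, and 6 and 1 in diploid-labelled cultures at 24 h. Among all 6087 genes these splits were 393 and 292, 755 and 625, and 682 and 578. The medians of the related genes were 1.05, 0.53 and 1.27, beside 0.14, 0.32 and 0.28 for all genes. SRX1 and the glutathione transferase GTT2 had means of 5.81 and 6.79 in haploid cultures at 24 h and were listed at 0 in both libraries at 2 h. TRR1 fell by 2.21 and YHB1, a flavohemoglobin that detoxifies nitric oxide, fell by 1.27 (adjusted p = 0.00015 and 4.4e-06).

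Rapamycin inhibits the TORC1 kinase, which promotes growth when nutrients are present, and cells given it accumulate in G1. Treated libraries were compared with the same strain at 0 h, because no untreated library was taken at 1 or 5 h. The drug and the time in culture therefore cannot be told apart in these comparisons. In haploid cultures CTT1 was listed at 0 in both libraries before the drug and was at 4.42 and 4.87 after 1 h and at 4.52 and 5.23 after 5 h. TSA2 was listed at 0 in both libraries before the drug and was at 5.25 and 5.71 after 1 h and at 5.09 and 6.80 after 5 h. Both genes passed the test at 1 and 5 h, and no fold is given against a group at 0. PRX1 was at 4.70 and 3.41, at 7.28 and 7.12 and at 8.37 and 7.23 at 0, 1 and 5 h, a rise of 3.15 ± 0.55 by 1 h (adjusted p = 0.000384). SOD2 (7.29 and 6.90 at 0 h, 9.06 and 8.48 at 1 h), TSA1 (9.97 and 9.83, 11.33 and 11.19) and GRX1 (6.04 and 6.65, 8.03 and 8.94) rose by 1.67 ± 0.25, 1.36 ± 0.17 and 2.14 ± 0.41 by 1 h. All of these libraries were above those of 0 h. SOD1 alone passed at 1 h and not at 5 h. It was at 9.76 and 9.89 at 0 h, at 10.81 and 11.06 at 1 h and at 10.30 and 10.07 at 5 h. The change of 1.11 ± 0.18 at 1 h passed (adjusted p = 0.000226). That of 0.36 ± 0.18 at 5 h did not (adjusted p = 0.173), and its sign turned under each of the 3 other scalings. The change from 1 to 5 h was not tested for any member.

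In all, 7 of 10 members were higher after 1 h (23.8% of 6176 genes), with a median of 1.91 beside 0.63 for all genes, and 6 of 10 after 5 h (22.5%), with a median of 2.08 beside 0.62. CTA1 and GPX1 were not among them at either time, nor was TRX2, which was at 8.29 and 7.54 at 0 h and 9.30 and 8.83 at 1 h (adjusted p = 0.0654). In diploid-labelled cultures 5 members were higher after 5 h (19.7% of all genes), with a median of 1.52 beside 0.53. With only the compared groups fitted, SOD2 alone passed (adjusted p = 0.0145), and CTT1, TSA1, PRX1 and TRX2 did not (adjusted p between 0.0844 and 0.147). CTT1 was at 3.14 and 3.19 at 0 h and at 4.89 and 5.17 at 5 h, a change of 1.87 ± 0.58 (adjusted p = 0.027, and between 0.0704 and 0.123 without any 1 of the 4 libraries). PRX1 rose by 3.82 ± 0.55, TRX2 by 2.48 ± 0.45, SOD2 by 2.05 ± 0.25 and TSA1 by 1.17 ± 0.17. GRX1 and TSA2 did not pass, and did without 1 library (adjusted p = 0.037 and 0.00021). The CTT1 libraries before the drug were above 0 here and at 0 in the haploid cultures, and the change over 5 h was not shown to differ between the strains for any member (0 of 10 by limma, 0.939% of all genes, 563 genes and 3 members at an unadjusted p under 0.05).

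The high share of higher genes after rapamycin depended on the scaling: at 5 h in haploid cultures 1387 genes were higher and 238 lower, and 972 and 384 with the ribosomal DNA reading frames, 939 and 505 in the deposited values. In diploid-labelled cultures the split was 1218 and 251, and 764 and 403 and then 650 and 556. After centring on the median of all genes TSA1 did not pass at 5 h in either strain (adjusted p = 0.0852 and 0.0819). In the diploid-labelled cultures 3 of 10 members passed after centring, and the share of all genes there is not given here. Of the related genes, 13 were higher and 0 lower at 1 h, and 12 and 1 at 5 h in haploid cultures, and 11 and 1 at 5 h in diploid-labelled ones. Among all 6176 genes 1472 were higher and 477 lower at 1 h, with the splits at 5 h as above. The medians of the related genes were 1.12, 1.35 and 1.01, beside 0.63, 0.62 and 0.53 for all genes. GTT1 was higher by 3.63 at 1 h (adjusted p = 1.1e-05) and by 5.13 at 5 h (adjusted p = 2.74e-07), and SRX1, listed at 0 in both haploid libraries before the drug, had a mean of 7.15 at 5 h.

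The Bcy1 experiment held the 3 temperature-sensitive arrests side by side, 2 libraries per group at 6 h. After 6 h at 37 °C, CTT1 was at 3.13 and 4.17 in WT, at 6.83 and 6.55 in cdc28-13, at 7.06 and 7.28 in cdc20-1 and at 6.79 and 6.55 in cdc15-2. Every arrested library was above both WT libraries, and the differences were 3.04 ± 0.36, 3.52 ± 0.36 and 3.02 ± 0.36 (SE, adjusted p = 1.13e-07, 9.82e-09 and 3.09e-07). TSA2 was at 4.77 and 4.84 in WT, at 6.79 and 6.79 in cdc28-13, at 6.28 and 6.27 in cdc20-1 and at 7.37 and 7.13 in cdc15-2. PRX1 was at 7.44 and 7.07 in WT, at 9.62 and 9.43 in cdc28-13, at 8.75 and 8.82 in cdc20-1 and at 8.66 and 8.47 in cdc15-2. SOD2 was at 7.85 and 8.01 in WT, at 9.55 and 9.64 in cdc28-13, at 9.62 and 9.37 in cdc20-1 and at 9.55 and 9.20 in cdc15-2. The arrested libraries of these 3 genes were all above WT and passed the test in each arrest. SOD1, by contrast, did not pass in any arrest, with differences of -0.28 ± 0.17, -0.09 ± 0.17 and 0.22 ± 0.17, except that in cdc28-13 it was called lower without the second WT library (-0.51, adjusted p = 0.0421).

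The counts of members higher than in WT were 9, 9 and 7 of 10 in cdc28-13, cdc20-1 and cdc15-2 (27.0%, 29.7% and 30.1% of 6074 genes), with medians of 1.59, 1.22 and 1.26 beside 0.14, 0.21 and 0.30 for all genes, and none was lower. CTA1 differed by 1.48 ± 0.34 in cdc28-13, 1.14 ± 0.34 in cdc20-1 and 1.06 ± 0.34 in cdc15-2 (adjusted p = 0.0163). The calls in cdc20-1 and cdc15-2 were each lost without a single library (adjusted p up to 0.0565 and 0.146). At 4 h the CTA1 differences were -0.15, 0.49 and 0.10. In the cdc28-13 experiment CTA1 at 6 h was instead lower in the single cdc28-13 library (3.81) than in the WT mean (4.49). TSA1 differed by 0.67 ± 0.18, 0.59 ± 0.18 and 0.38 ± 0.18, and its calls in cdc28-13 and cdc20-1 were lost without the second WT library (adjusted p = 0.0775 and 0.151). TRX2 in cdc28-13 (0.79 ± 0.24) was lost without the first cdc28-13 library (adjusted p = 0.0983) or the second WT library (adjusted p = 0.228), and GPX1 in cdc20-1 (1.16 ± 0.31) without the second WT library (adjusted p = 0.0652). In cdc15-2 GPX1 (1.26 ± 0.31) was lost without 1 library (adjusted p = 0.0659), and TSA1 and TRX2 passed without the first WT library. The 3 comparisons share the same 2 WT libraries, and both cdc28-13 and cdc15-2 differed from WT in mating type. At 4 h the counts were 5, 8 and 3, beside 13.2%, 22.4% and 7.36% of all genes. Of the 24 related genes, 10, 9 and 12 were higher and 4, 3 and 3 lower at 6 h. Among all 6074 genes 1639, 1801 and 1829 were higher and 1086, 889 and 479 lower. The medians of the related genes were 0.31, 0.21 and 0.42, beside 0.14, 0.21 and 0.30 for all genes. SRX1 led in each arrest, by 3.36, 3.21 and 2.55, and TRX1 fell by 0.62, 1.17 and 0.55.

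Depletion of Bcy1 frees protein kinase A, and the degron strains were compared with their parents to ask what active kinase does to the stress programme of arrested cells. Before auxin, at 2 h, 0 of 10 members passed the limma test between AID-BCY1 and parent in each of cdc28-13, cdc20-1 and cdc15-2 (0.148%, 2.6% and 0.955% of all genes were called in either direction, and 238, 991 and 307 genes had an unadjusted p under 0.05). WT had a single library at 2 h, which was assumed to vary like the other groups. There too 0 of 10 passed (0.0494% of all genes, and 262 at an unadjusted p under 0.05), which with 1 library does not show that the strains were alike. CTT1 was by then at 4.75 and 6.00 in cdc28-13 and 3.91 and 4.37 in its AID-BCY1 strain, at 5.83 and 6.40 against 5.12 and 5.34 in cdc20-1, and at 5.31 and 5.17 against 4.51 and 3.60 in cdc15-2. The CTT1 libraries of the degron strains lay below their parents in all 3 arrests without passing the test (differences of -1.24, -0.88 and -1.19, adjusted p between 0.186 and 0.216). In cdc15-2 CTT1 passed when 1 library was left out (adjusted p = 0.0386).

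At 6 h, 4 h after the first addition of auxin, most members were lower in the degron strains of the 3 arrests. CTT1, SOD1, SOD2, TSA2, PRX1, GPX1 and TRX2 passed the test in each. CTT1 was at 6.83 and 6.55 in cdc28-13 and at 4.60 and 4.83 in cdc28-13 AID-BCY1, a difference of -1.98 ± 0.36 (SE, n = 2 and 2, adjusted p = 0.000134). It was at 7.06 and 7.28 in cdc20-1 and at 4.62 and 5.45 in its degron strain, a difference of -2.14 ± 0.36 (adjusted p = 6.57e-05). It was at 6.79 and 6.55 in cdc15-2 and at 3.40 and 3.57 in its degron strain, a difference of -3.19 ± 0.36 (adjusted p = 6.83e-08). The degron libraries lay below the parents throughout, and those of cdc15-2 lay within the range of WT, 3.13 to 4.17. GPX1 fell furthest of all members in cdc28-13, from 6.47 and 6.28 to 3.65 and 4.27, by 2.42 on the log2 scale (SE 0.31). In cdc20-1 it was at 5.89 and 6.14 against 4.68 and 4.35, and in cdc15-2 at 6.36 and 5.88 against 3.19 and 3.39, with differences of -1.50 ± 0.31 and -2.83 ± 0.31.

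PRX1 fell by 1.94, 2.05 and 2.10 in cdc28-13, cdc20-1 and cdc15-2 (SE 0.26 each), from 9.62 and 9.43, 8.75 and 8.82, and 8.66 and 8.47 to 7.53 and 7.64, 6.55 and 6.92, and 6.33 and 6.61. SOD2 fell by 1.35, 1.34 and 1.51 (SE 0.16 each), to 8.24 and 8.25, 8.10 and 8.21, and 7.82 and 7.92. SOD1, which did not pass when the arrests were compared with WT, also fell by 0.95, 1.03 and 0.92 (SE 0.17 each), and in all 3 arrests its degron libraries were below every parent library. TSA2 fell by 1.96, 1.63 and 2.78 (SE 0.29 each). TSA1 stood apart at 6 h. It was at 11.05 and 10.84 against 10.94 and 10.97 in cdc28-13, and at 10.90 and 10.82 against 10.84 and 10.67 in cdc20-1. The differences of 0.01 (95% interval -0.35 to 0.37) and -0.10 (-0.46 to 0.26) did not pass. In cdc15-2 TSA1 was at 10.67 and 10.64 against 10.07 and 10.28 (-0.48 ± 0.18, adjusted p = 0.0401, and up to 0.35 without 1 library). At 4 h TSA1 differed by -0.45, -0.91 and -0.80 in cdc28-13, cdc20-1 and cdc15-2 (limma adjusted p = 0.0648, 0.000224 and 0.000899). The paralogs TSA1 and TSA2 thus differed in how far they moved.

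Counted over the list, 9, 7 and 10 of 10 members were lower in cdc28-13, cdc20-1 and cdc15-2 AID-BCY1 than in the parents (15.4%, 13.0% and 21.8% of all genes), with medians of -1.55, -1.18 and -1.68 beside -0.05, -0.10 and -0.13, and none was higher. CTA1 in cdc28-13 (-1.04 ± 0.34) was lost without single libraries (adjusted p between 0.0671 and 0.351), as was TRX2 in cdc20-1 (-0.87 ± 0.24, adjusted p between 0.0564 and 0.0783). CTA1 and GRX1 in cdc20-1 had adjusted p of 0.393 and 0.174, and GRX1 there passed without 1 library (adjusted p = 0.0315). At 4 h in cdc20-1 the differences of CTA1 and GRX1 were -0.49 and -1.35 (limma adjusted p = 0.316 and 1.27e-05). In WT, 2 of 10 members were lower (6.91% of all genes), with a median of -0.41 beside 0.15. PRX1 was at 7.44 and 7.07 in WT and at 6.18 and 6.35 in WT AID-BCY1 (-0.99 ± 0.26, adjusted p = 0.01), and SOD1 at 10.93 and 10.50 against 10.06 and 10.32 (-0.53 ± 0.17, adjusted p = 0.0403). With only the compared groups fitted 1 of 10 passed, and the share of all genes under that fit is not given here. Both calls were lost without single libraries (adjusted p up to 0.128 and 0.478), and CTT1, at 3.13 and 4.17 against 3.68 and 3.53, did not pass. GRX1 in WT passed without 1 library. At 4 h the counts of members lower were 6, 8, 9 and 10 in WT, cdc28-13, cdc20-1 and cdc15-2, beside 13.2%, 19.0%, 19.2% and 17.9% of all genes. Parent and degron strains differed in mating type in the cdc20-1 and cdc15-2 backgrounds.

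**Figure D4:**
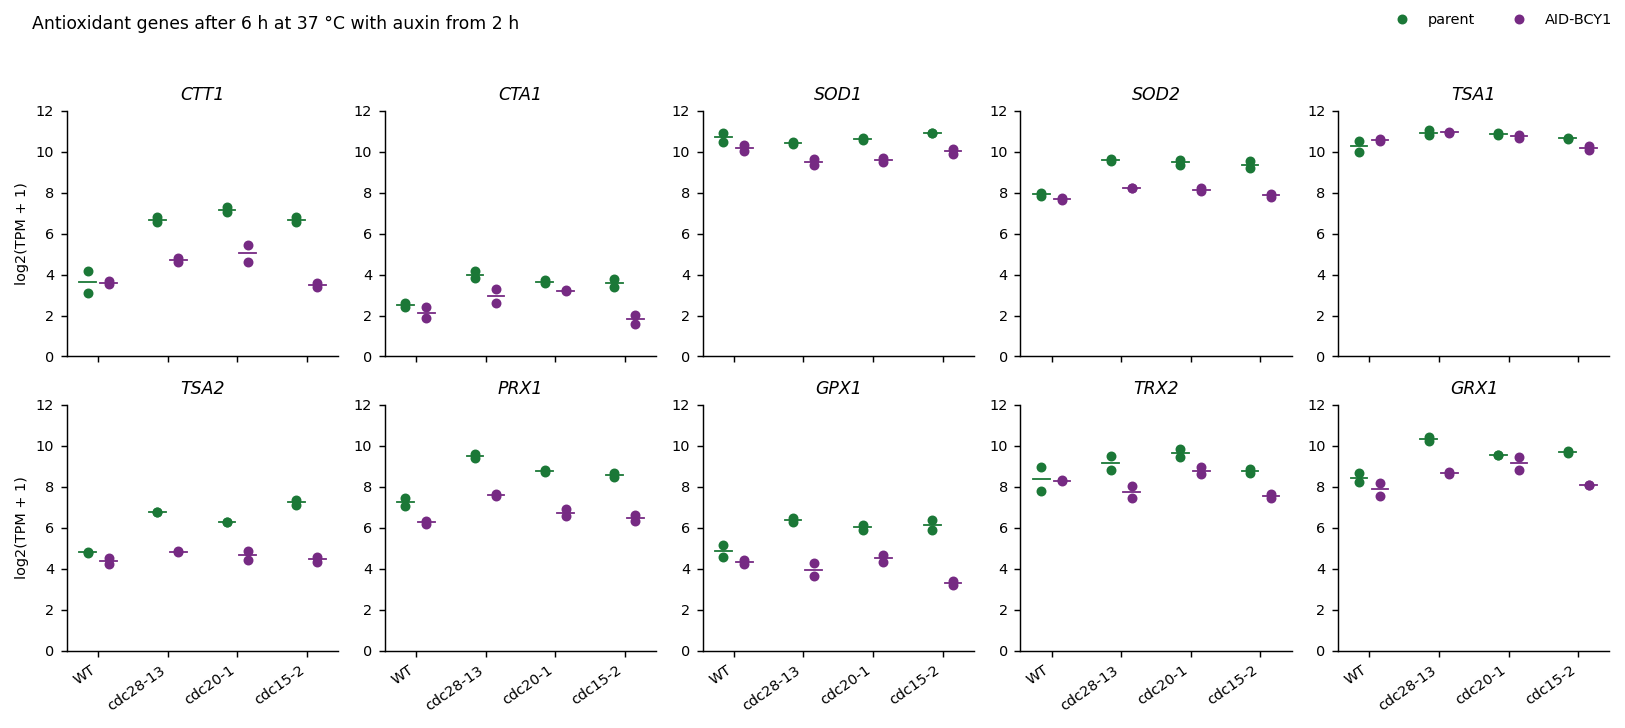
Levels of the 10 genes at 6 h in the Bcy1 experiment, with parents in green and AID-BCY1 strains in purple. Each panel is a gene, the x axis gives the background (WT, cdc28-13, cdc20-1, cdc15-2), the y axis is log2(TPM + 1), points are the 2 libraries of a group and bars their mean. In the arrested backgrounds CTT1 is at 6.55 to 7.28 in the parents and at 3.40 to 5.45 in the AID-BCY1 strains, and TSA1 in cdc28-13 overlaps between them.

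The degron difference was then compared between each arrest and WT, by a test of the difference of differences at 6 h. In cdc28-13, 6 of 10 members fell further than in WT (6.04% of 6074 genes were called in either direction), with CTT1 at -1.94 and GPX1 at -1.89, but only 2 to 4 when any 1 of the 8 libraries was left out. In cdc20-1 it was 2 of 10 (4.46%), CTT1 at -2.09 and SOD2 at -1.08, and 0 to 3 with a library left out. In cdc15-2 it was 7 of 10 (10.8%), with CTT1 at -3.14, TSA2 at -2.35 and GPX1 at -2.31, and 4 to 7 with a library left out. CTT1 and SOD2 were called in all 3 arrests, and SOD1, CTA1 and PRX1 in none. These tests share the 4 WT and WT AID-BCY1 libraries. Before auxin, at 2 h, the degron difference of CTT1 was -1.24, -0.88 and -1.19 in cdc28-13, cdc20-1 and cdc15-2. In WT, with 1 parent library, it was 0.27. The 6 h values were not corrected for this, so how much of them arose after auxin was not tested. The counts were smaller in the deposited values (1, 1 and 4) and after centring (2, 1 and 4), where the shares of all genes are not given here. At 4 h the counts were 0, 0 and 2, beside 0.0494%, 1.05% and 0.626% of all genes. Of the 24 related genes at 6 h, 10, 8 and 14 were lower and 0, 1 and 2 higher in the cdc28-13, cdc20-1 and cdc15-2 degron strains, and 3 were lower and 2 higher in WT. Among all genes 15.4%, 13.0% and 21.8% were lower in the arrests and 6.91% in WT. The medians of the related genes were -0.38, -0.17, -0.44 and -0.06, beside -0.05, -0.10, -0.13 and 0.15 for all genes. AHP1, another thiol peroxidase, and the mitochondrial thioredoxin TRX3 fell furthest in cdc28-13, by 1.71 and 1.66, and GTT1 fell by 1.56 in cdc20-1 and by 2.37 in cdc15-2.

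**Figure D5:**
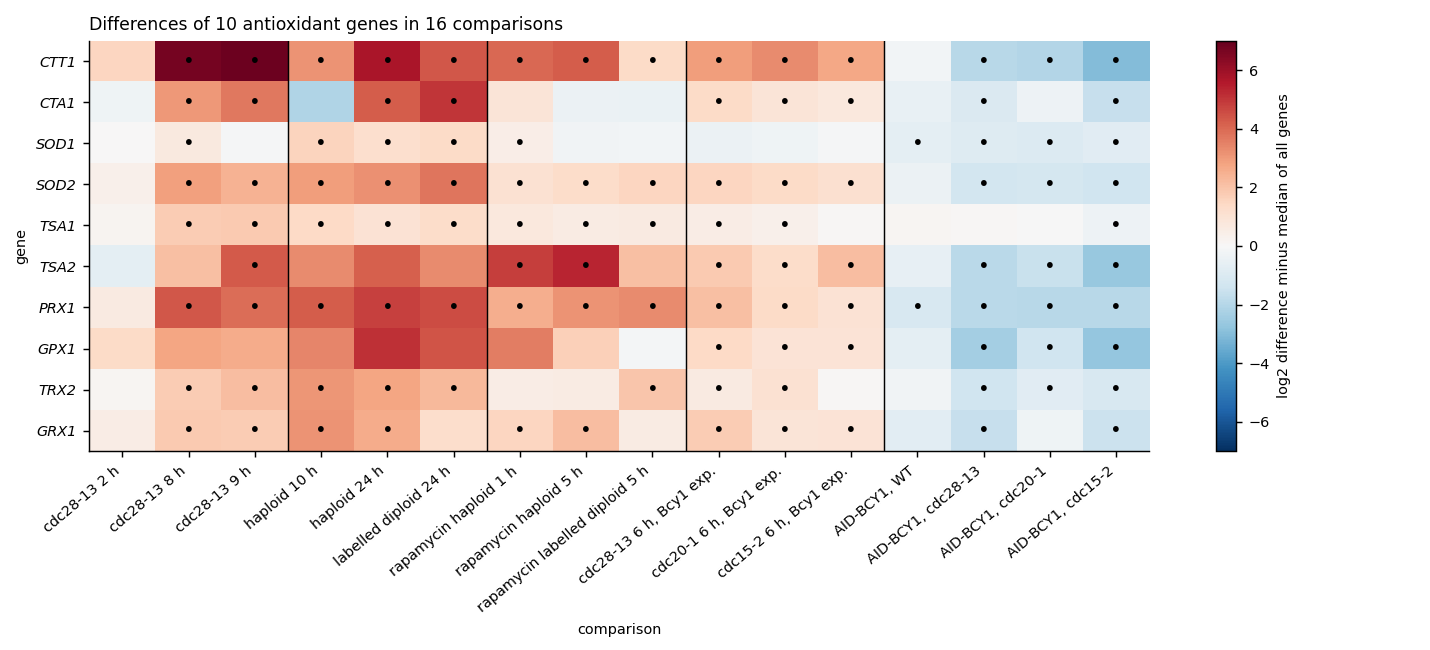
Differences of the 10 genes over 16 comparisons. Rows are genes, columns are comparisons, the colour is the log2 difference on the log2(TPM + 1) scale minus the median difference of all genes, and a dot marks an adjusted p under 0.05. The arrest, stationary phase and rapamycin columns hold rises for most genes, the AID-BCY1 columns of the arrests hold falls, and the SOD1 row stays pale in the arrest columns.

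How alike the members were was described by Pearson's r over all libraries, after each experiment's mean had been removed. The libraries of an experiment share time courses and scaling, so r is given as a description only. PRX1 was the most central member, with a median r of 0.845 to the other 9, and its nearest gene of all 5644 compared was SOD2 (r = 0.932), the other mitochondrial enzyme. SOD2 was nearest to GDB1, the glycogen debranching enzyme (0.934). CTA1 was the least like the others (median r 0.466) and was nearest to PCK1 of gluconeogenesis (0.715) and FOX2 of peroxisomal fatty acid oxidation (0.681). GPX1, often listed at 0, and SOD1 followed with medians of 0.586 and 0.596. GPX1 was nearest to FUN19 (0.693), and SOD1 to the glutaredoxin GRX2 (0.766).

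For the other members the nearest genes were MSC1 (0.901), YAK1, a kinase that acts against protein kinase A (0.889), and KGD1 of the citric acid cycle (0.882) for CTT1. They were YDL124W (0.888) and the mitochondrial chaperone HSP78 (0.886) for TSA1, and YMR196W (0.784), MSC1 (0.769) and CTT1 (0.762) for TSA2. TRX2 was nearest to TFS1 (0.861) and TSA1 (0.853), and GRX1 to AMS1, the vacuolar mannosidase (0.873), and GRE3, an aldose reductase (0.866). The paralogs TSA1 and TSA2 were each nearer to other genes than to each other.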

How the data were processed

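RNA-seq libraries of budding yeast were aligned by the authors with STAR 2.5.3a and quantified with RSEM 1.3.0 on sacCer3, per the submitters' processing notes, and the deposited table holds log2(TPM + 1) values for 7130 rows. No read counts were used, so the depth is unknown and precision comes from replicate libraries only. Columns were assigned by their sample labels. TPM was recovered, rescaled to 1000000 over 6678 nuclear reading frames (7 in the ribosomal DNA left out), and returned to log2 after adding 1. A gene entered an experiment's tests where its mean there was 1 or more.

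Differences were tested with limma 3.58.1 in R 4.3.3 (empirical Bayes with a variance trend, all libraries of an experiment in 1 fit, library series as a covariate in the Bcy1 experiment) and Benjamini-Hochberg adjustment over all genes kept, with 0.05 as the threshold. The limma step was tested on simulated data. Where every group of an experiment was a single library, a log2 difference of 1 was used and nothing was tested. Names and sequences came from the R64 annotation, which held 5985 of the 6678 reading frames, and promoters were cut from that assembly. Python 3.11.15, numpy 2.4.6 and pandas 2.3.3 were used. The members and the gene lists were chosen with earlier results of these data known. Named were all 10 members, the related genes and regulators with the largest changes past the threshold, and for each member the genes most like it. Not every gene under this rule is given.

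Alternatives were the total with the ribosomal DNA reading frames, the deposited values, 0.1 as the pseudocount, differences centred on the all-gene median, a filter at 3 or none, only the compared groups, no series covariate, the replicate number as a block and each library left out. The 4 h and 10 h times, the test of the single cdc28-13 libraries, the interactions under alternatives and the 600 base window were added after seeing the data.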

Additional observations from a re-analysis of the deposited data

Results flagged for a closer look

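The difference between AID-BCY1 and parent was itself different between an arrest and WT for the following members at 6 h, by the limma test of the interaction. In cdc28-13 it was lower by 1.94 for CTT1 (difference -1.94, adjusted p = 0.0215), and the values for SOD2, TSA2, GPX1, TRX2 and GRX1 were -1.09, -1.53, -1.89, -1.35 and -1.10 (adjusted p = 0.00534, 0.026, 0.0101, 0.019 and 0.0238). In cdc20-1 the values were -2.09 for CTT1 and -1.08 for SOD2 (adjusted p = 0.0174 and 0.00575). In cdc15-2 they were -3.14 for CTT1, -1.25 for SOD2, -0.79 for TSA1, -2.35 for TSA2, -2.31 for GPX1, -1.15 for TRX2 and -1.03 for GRX1 (adjusted p between 0.000199 and 0.0394). With 1 library left out, the members called were 2 to 4 in cdc28-13, 0 to 3 in cdc20-1 and 4 to 7 in cdc15-2. At 4 h, a time added after seeing the data, the values in cdc15-2 were -2.22 for CTT1 and -1.81 for TSA2 (adjusted p = 0.0372 and 0.0375, beside 0.626% of all genes called). Mating type differs between parent and degron strain in cdc20-1 and cdc15-2 but not in WT or cdc28-13. Its part in these values was not tested. At 2 h, before auxin, the CTT1 difference was -1.24, -0.88 and -1.19 in cdc28-13, cdc20-1 and cdc15-2 and 0.27 in WT. The values at 4 and 6 h were not corrected for this.

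The change from 2 to 10 h of growth was larger in the diploid-labelled than in the haploid cultures for SOD1 (2.01), SOD2 (1.83) and TSA1 (0.67), with adjusted p of 0.005, 0.017 and 0.042. The diploid-labelled libraries express a-specific genes as the haploid ones do, and cell density was not analysed here, so strain and growth stage cannot be told apart.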

How the results depend on the processing

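Of the counts of members called under the alternatives, 382 stayed within 1.5 times the count reported and 47 did not, and of the member differences 2345 kept their direction and call, 94 lost the call, 25 gained it, 33 changed sign and 43 single-library differences moved past or below 1. In the cdc28-13, stationary phase and rapamycin experiments, libraries of the same number did not deviate together (r between -0.035 and 0.0472). With 2 libraries per group this check can say little. It was not run in the Bcy1 experiment, where the replicate number follows the library series. With the replicate number as a block 14 of 14 counts stayed close, and the 1 member that changed was GPX1 in haploid cultures at 24 h, which passed (adjusted p = 0.0356). In the deposited values 5 members, 4 higher and SOD1 lower, were called at 8 h and 5 at 9 h of the cdc28-13 arrest, where CTA1, TSA2 and GPX1 were too low to be tested, 3 were past 1 at 2 h of alpha factor, and 3 and 2 at 4 and 6 h of cdc28-13. With centring, 3 were called in diploid-labelled cultures after 5 h of rapamycin, and 1 was past 1 in cdc15-2 at 4 h, 3 and 4 at 2 and 9 h of alpha factor and 1 in the prototroph at 8 h. In the test of the single cdc28-13 libraries, 2 and 1 were called at 4 and 6 h with only the compared groups and 1 at 6 h with the ribosomal DNA. With only the compared groups, 1 was called in diploid-labelled rapamycin cultures, 1 in cdc28-13 AID-BCY1 before auxin and 1 in WT AID-BCY1 at 6 h, and the 2 h comparison in WT could not be fitted. At 4 h in place of 6 h, 5, 3 and 6 were called for cdc28-13, cdc15-2 and WT AID-BCY1. For the interactions with WT, cdc28-13, cdc20-1 and cdc15-2 gave 1, 1 and 4 in the deposited values, 2, 1 and 4 with centring and 0, 0 and 2 at 4 h, the stationary phase interaction gave 3 at 10 h, and that of rapamycin 1 with a pseudocount of 0.1. The causes were not tested. These counts stand without the share of all genes called under the same alternative, so a smaller count cannot be read as a trait of the members.

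Signs turned in these cases. SOD1 at 8 h of cdc28-13 became -0.51 with the ribosomal DNA and -0.62 in the deposited values. After 5 h of rapamycin in haploid cultures CTA1 became -0.17 with the ribosomal DNA and -0.56 with centring, and SOD1 -0.044, -0.058 in the deposited values and -0.39 with centring. In diploid-labelled cultures CTA1 became -0.34 and -0.66, SOD1 -0.13, -0.26 and -0.38, and GPX1 -0.28 with centring. With centring SOD1, TSA1 and TRX2 in cdc15-2 at 6 h became -0.16, -0.0019 and -0.0013. TSA1 became -0.067 in cdc28-13 AID-BCY1 in the deposited values and 0.048 in cdc20-1 AID-BCY1 with centring. None of these values but SOD1 at 8 h was called on the main scale.

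With 1 library left out, CTT1 in WT between 2 and 9 h ranged from -1.47 to 0.92, CTA1 from -0.54 to 0.94 and from -0.11 to 0.19 after 5 h of rapamycin in haploid and diploid-labelled cultures, and GPX1 from -1.95 to 2.78 in the latter. SOD1 ranged from -0.32 to 0.14 in cdc20-1 and from -0.0076 to 0.45 in cdc15-2, TRX2 from -0.46 to 0.29 and CTT1 from -0.51 to 0.42 in WT AID-BCY1, and TSA1 from -0.065 to 0.084 in cdc28-13 AID-BCY1. PRX1 in haploid cultures at 24 h ranged from 4.13 to 6.02. The counts ranged from 0 to 3 in cdc20-1 AID-BCY1 and 0 to 1 in cdc15-2 AID-BCY1 before auxin, 0 to 3 in WT AID-BCY1 at 6 h, 2 to 4, 0 to 3 and 4 to 7 for the interactions in cdc28-13, cdc20-1 and cdc15-2, and 0 to 1 for that of rapamycin. The counts at 8 and 9 h of cdc28-13 ranged from 6 to 8 and 7 to 8. Differences of single members in the 2 h and WT time comparisons were recomputed for CTT1 only.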
